A study of Mus musculus with 7 samples.

Results

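Voltage-gated sodium, calcium and HCN channels set the electrical excitability of neurons, and 27 genes of these families were followed here in the mouse neocortex. The genes were taken by name: pore and auxiliary subunits of sodium channels, calcium channels and HCN channels, the leak channel gene Nalcn, and Scnm1, a splicing factor named for its effect on a sodium channel. Of the 27, 26 had a probe set that carried their symbol alone, out of 19936 genes on the array with such a probe set. Cacnb3 was not analysed here. Where a gene had more than 1 such probe set, the brightest stood for it, which concerned Scn9a and Cacna2d1. The 26 genes passed the filter on dim signal, a mean log2 signal of 6.84, and so were among the 16144 genes tested.

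RNA of whole neocortex from C57BL/6 mice was measured, with 7 samples on 1 array each. The genotype of 4 samples combined COUP-TFI with Nex-Cre (CKO), and the other 3 samples were wild type (WT). Nr2f1 encodes COUP-TFI, a nuclear receptor without a known ligand that sets area identity in the developing cortex. Nex-Cre is driven by the Neurod6 locus in postmitotic glutamatergic neurons, so interneurons, glia and vascular cells of the tissue are not recombined by this driver. Neither the age of the mice nor whether every sample was a different animal is stated in the labels. A p-value therefore reflects the spread among these 7 samples only, some of which may be technical. Each array is called by the number its label carries: 1, 4, 34 and 43 for CKO, and 6, 27 and 38 for WT.

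Sodium channels open on depolarization and carry the rising phase of the action potential. High voltage activated calcium channels couple depolarization to transmitter release, dendritic signalling and transcription, while T-type calcium channels open near rest and drive burst firing. HCN channels open on hyperpolarization, pass a mixed cation current and are modulated by cyclic nucleotides. In cortical neurons many members of these families, though not all, are switched on progressively as the cells mature. The auxiliary subunits of the families control how many pores reach the membrane.

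All values are log2 signals made by RMA, and differences are CKO minus WT. Probes differ in how strongly they bind, so the level of 1 gene is not set against that of another. The targeted gene, Nr2f1, was measured in CKO at 10.68 ± 0.0844 (SD, n = 4) and in WT at 11.04 ± 0.143 (SD, n = 3), with no overlap. Whether its probes fall in the deleted part was not tested, which makes this partial difference a limited check of the labels. Of 9 glutamatergic markers, which all had signals above the filter, 6 overlapped between the groups, Neurod2 among them, at 13.06 to 13.21. The other 3, or 33.3% beside 8.38% of all genes tested, did not overlap. Neurod6, the locus of the Cre driver, was lower in CKO by limma's estimate of -0.20. Tbr1 and Bcl11b were higher, at 0.14 and 0.15, and none of the 3 had an adjusted p under 0.05 in limma. Markers of other cells did not have equal signal in the groups. The mean of 9 striatal markers, relative to the mean of the 7 arrays, lay between -0.04 and 0.35 on the CKO arrays and between -0.33 and -0.16 on the WT arrays, and that of 10 markers of radial glia and astrocytes between 0.02 and 0.09 and between -0.09 and -0.02. The 3 Y-linked genes tested were at -3.64 on CKO 43 and between 0.32 and 0.72 on the other arrays. The part of these differences in the values of the channel genes was not tested. The exceptions are the fits with striatal and Y-linked signal as covariates given at the end. Only some of the 9 striatal markers went into the striatal covariate. In tissue of mixed cells, fewer cells of a type and less RNA per cell cannot be told apart.

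None of the 26 genes passed an adjusted p of 0.05 with limma's test over all genes, where 4 of 16144, or 0.0248%, did. At an unadjusted p under 0.05 there were 2 of the 26, Scn1a lower and Cacna1a higher in CKO. That is a share of 7.69%, against 6.79% of all genes tested (4.17% higher and 2.61% lower). The groups did not overlap for 2 of the 26, Scn1a and Cacnb4, both lower in CKO, against 8.38% of all genes in either direction and 2.99% lower. The shares at the unadjusted p and without overlap in either direction are near those of all genes. Of the 26 differences, 16 were below 0, or 61.5%, against 41.1% of all genes. The median difference was -0.04, beside 0.01 over all genes tested. These genes also varied more between arrays of 1 group than most: the median residual SD was 0.108 for the 26 and 0.0739 for all genes.

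**Figure D1:**
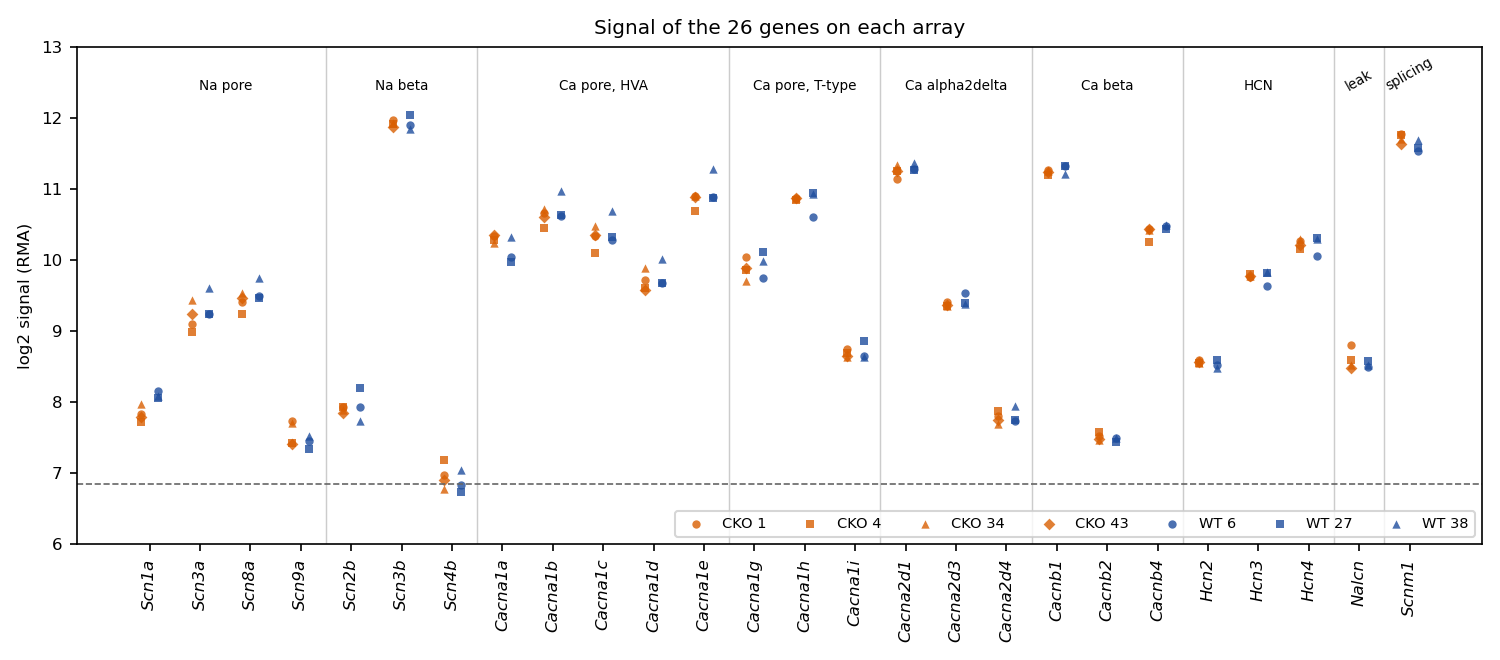
RMA log2 signal (vertical axis) of the 26 genes (horizontal axis, grouped by class) on each of the 7 arrays. Orange symbols are the 4 CKO arrays and blue symbols the 3 WT arrays; the dashed line is the filter on dim signal at 6.84, which the mean of Scn4b, at 6.92, only just exceeded, and the WT 38 triangle stands above the other blue symbols for the 5 high voltage activated calcium pore genes.

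Among the sodium channel pore genes, Scn1a, which encodes a channel prominent in fast-spiking interneurons and also present in pyramidal cells, had the smallest p of the 26 genes. Its log2 signal (probe set 10483299) was 7.83 on CKO 1, 7.71 on CKO 4, 7.97 on CKO 34 and 7.79 on CKO 43, and 8.15 on WT 6, 8.05 on WT 27 and 8.08 on WT 38. The groups did not overlap, and CKO 34 came nearest to the WT arrays. The difference was -0.27 (SE 0.0616, 95% interval -0.41 to -0.13). Limma's unadjusted p was 0.00215 and the adjusted p 0.621, so Scn1a did not pass over all genes. With any 1 array left out, the difference stayed between -0.32 and -0.23. In array lot 2, which held 2 CKO and 2 WT arrays, it was -0.19.

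COUP-TF receptors bind DNA at repeats of the nuclear receptor core motif AGGTCA, and this motif was therefore looked for around the transcription starts of the channel genes. RefSeq sequences of assembly GRCm38.p6, from 250 bases before to 50 after a start, were at hand for 19 of the 27 genes, with 28 starts in all. AGGTCA, on either strand, occurred at 3 of these 28 starts, or 10.7%, and at 5340 of 32851 starts of all genes, or 16.3%. The 3 belong to Scn1a (chr2:66440788-66441087, minus strand), Scn8a (chr15:100936021-100936320, plus strand) and Hcn2 (chr10:79716384-79716683, plus strand). They are shown because Scn1a had the largest difference of the 26 genes and the other two hold the same letters; capitals mark AGGTCA or its reverse complement.
Scn1a: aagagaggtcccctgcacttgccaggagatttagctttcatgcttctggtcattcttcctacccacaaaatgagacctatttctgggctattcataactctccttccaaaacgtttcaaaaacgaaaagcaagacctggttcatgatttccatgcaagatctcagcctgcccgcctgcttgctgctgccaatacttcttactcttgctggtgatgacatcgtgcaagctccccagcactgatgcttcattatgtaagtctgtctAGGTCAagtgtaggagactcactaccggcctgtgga
Scn8a: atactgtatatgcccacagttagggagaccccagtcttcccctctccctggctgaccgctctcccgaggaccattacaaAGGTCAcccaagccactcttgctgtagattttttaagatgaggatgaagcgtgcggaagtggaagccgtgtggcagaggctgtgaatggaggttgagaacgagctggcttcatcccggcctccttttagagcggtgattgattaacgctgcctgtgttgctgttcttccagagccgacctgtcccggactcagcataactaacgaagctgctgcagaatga
Hcn2: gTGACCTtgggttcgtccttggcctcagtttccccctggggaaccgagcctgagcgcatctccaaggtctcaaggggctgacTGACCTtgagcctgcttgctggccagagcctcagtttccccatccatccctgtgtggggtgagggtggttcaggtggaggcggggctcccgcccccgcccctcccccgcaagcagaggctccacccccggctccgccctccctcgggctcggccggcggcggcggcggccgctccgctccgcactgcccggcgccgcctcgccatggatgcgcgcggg
Counted from the transcription start, the match begins at 15 in Scn1a, at -171 in Scn8a and, for the first of 2, at the far end of the window in Hcn2. The direct repeat AGGTCANAGGTCA was found at 0 of the 28 starts and at 13 of 32851, or 0.0396%. A match of these letters is a description of the sequence and says nothing of binding, and the groups overlapped for Hcn2 and Scn8a.

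The other sodium pore genes did not separate the groups. Scn8a (probe set 10426955), the channel of the axon initial segment of excitatory neurons, had signals of 9.41, 9.24, 9.53 and 9.47 on CKO 1, CKO 4, CKO 34 and CKO 43, and of 9.49, 9.46 and 9.74 on WT 6, WT 27 and WT 38. WT 38 was the highest array and CKO 4 the lowest, and the others lay together between 9.41 and 9.53. The difference was -0.15 (SE 0.0877, adjusted p 0.741). Scn3a, a channel that is abundant in the embryonic cortex, ranged from 8.98 on CKO 4 to 9.61 on WT 38, and its difference was -0.18 (SE 0.125, adjusted p 0.762). Scn9a, best known from sensory and sympathetic neurons, differed by 0.13 (SE 0.0936, adjusted p 0.77), while its second, dimmer probe set, with a mean of 6.65, gave 0.01. Of the 4 pore genes 3 were below 0, or 75% beside 41.1% of all genes, with a median of -0.16. The close sequences of sodium channel genes may limit how far probes separate them, which was not tested. Over all 27 genes of the report, sodium channel or not, 3 further probe sets carried several symbols that included one of them. These were not used.

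The sodium channel beta subunits, single-span proteins that modulate gating and bind adhesion molecules, gave differences of both signs. Scn4b (probe set 10584862) was measured at 6.98, 7.18, 6.78 and 6.91 on CKO 1, CKO 4, CKO 34 and CKO 43 and at 6.83, 6.73 and 7.04 on WT 6, WT 27 and WT 38. The groups overlapped over most of their range and the signal lay at the filter, so little can be read from its difference of 0.10 (SE 0.103, 95% interval -0.14 to 0.33). Scn3b (probe set 10584549), the beta subunit that binds pores non-covalently, was at 11.97, 11.92, 11.93 and 11.87 on the CKO arrays in that order and at 11.90, 12.04 and 11.85 on the WT arrays. Its difference was -0.01 with a 95% interval of -0.13 to 0.12. Scn2b, which is linked to the pore by a disulfide bond, ran from 7.85 to 7.93 in CKO and from 7.74 (WT 38) to 8.19 (WT 27) in WT. The WT arrays spanned the CKO arrays on both sides, and the difference was -0.05 (SE 0.0933).

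**Figure D2:**
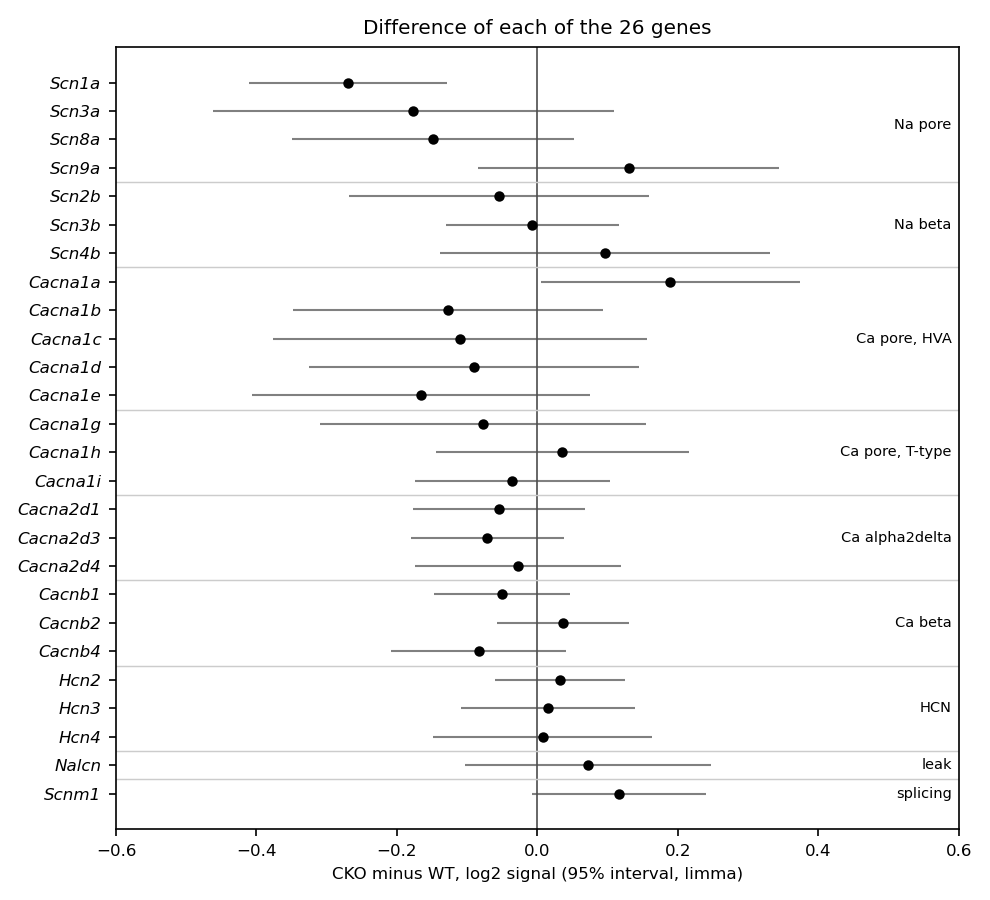
Difference between CKO and WT in log2 signal (horizontal axis) for each of the 26 genes (vertical axis, grouped by class), with limma's 95% intervals as bars, not adjusted for the number of genes. The intervals of Scn1a, from -0.41 to -0.13, and of Cacna1a, from 0.005 to 0.37, do not reach 0, and those of the 3 HCN genes lie around 0.

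Of the high voltage activated calcium pore genes, 4 of 5 had a difference below 0, or 80% beside 41.1% of all genes. The fifth, Cacna1a, went the other way. Cacna1a encodes the P/Q-type channel of presynaptic terminals. Its signal (probe set 10573348) was 10.34, 10.28, 10.24 and 10.36 on CKO 1, CKO 4, CKO 34 and CKO 43, and 10.04, 9.98 and 10.32 on WT 6, WT 27 and WT 38. WT 38 lay among the CKO arrays, and the other 2 WT arrays lay below them. The difference was 0.19 (SE 0.0806), or 1.14 times the WT signal, with an unadjusted p of 0.0456 and an adjusted p of 0.726 in limma. It was 0.29 without WT 38, 0.12 without WT 27, 0.15 in array lot 2 and 0.13 with striatal signal as a covariate; the unadjusted p was 0.179 without WT 27 and 0.347 with the covariate.

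The L-type, N-type and R-type pore genes shared 1 profile across arrays, with WT 38 at the top. Cacna1e (probe set 10358928), the R-type pore of dendrites and terminals, had 10.91, 10.69, 10.90 and 10.89 on CKO 1, CKO 4, CKO 34 and CKO 43, and 10.89, 10.87 and 11.28 on WT 6, WT 27 and WT 38. Apart from CKO 4 below and WT 38 above, the 5 remaining arrays fell between 10.87 and 10.91. The difference was -0.17 (SE 0.105, adjusted p 0.752). Cacna1b, the N-type pore that triggers transmitter release, ran from 10.46 on CKO 4 to 10.97 on WT 38 and differed by -0.13 (SE 0.0962, adjusted p 0.781). Cacna1c, the main L-type pore of the brain, ran from 10.10 on CKO 4 to 10.69 on WT 38 and differed by -0.11 (SE 0.116, adjusted p 0.827). Cacna1d, the L-type pore that opens at lower voltages, was highest on WT 38 at 10.01 and lowest on CKO 43 at 9.58, with a difference of -0.09 (SE 0.103, adjusted p 0.838).

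**Figure D3:**
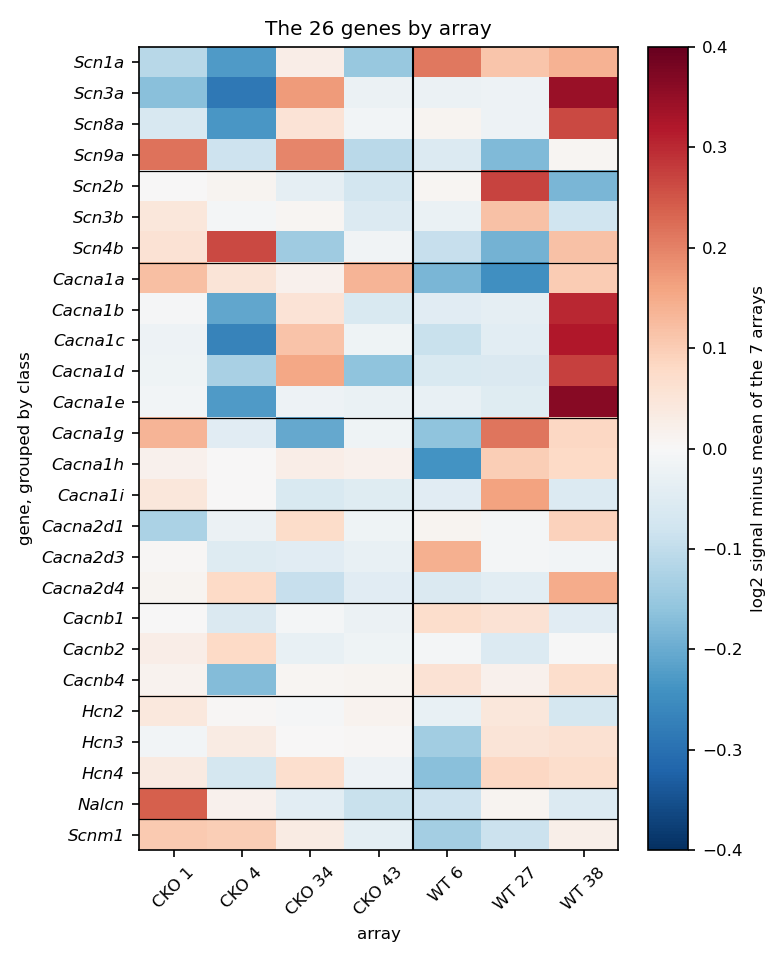
Log2 signal of the 26 genes (vertical axis, grouped by class) on each array (horizontal axis) after subtracting the mean of the 7 arrays, red for higher and blue for lower. WT 38 was the highest array for 10 genes and CKO 4 the lowest for 9, with pore and auxiliary subunit genes in both counts. The rows of the HCN genes are pale apart from WT 6.

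Among the 26 genes, the highest signal fell most often on WT 38 and the lowest most often on CKO 4. WT 38 was the highest of the 7 arrays for 10 of the 26 genes, or 38.5%, against 15.7% of all genes tested. CKO 4 was the lowest for 9 of the 26, or 34.6%, against 10.4% of all genes. Both held for 6 genes, Scn3a, Scn8a, Cacna1b, Cacna1c, Cacna1e and Cacnb4, or 23.1% against 3.38% of all genes. The opposite arrangement, CKO 4 highest and WT 38 lowest, held for 0 of the 26 and for 6.76% of all genes. These 2 arrays were singled out after their values were seen, so the shares are descriptions.

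How many of the 26 differences lay below 0 depended on the arrays and on the fit. It was 16 over all 7 arrays and also without CKO 4, with medians of -0.04 both times. It was 13 without WT 38 and 12 without WT 27, with medians of -0.0039 and 0.01, and 19 without WT 6, with a median of -0.07. Without both WT 38 and CKO 4 it was 10, with a median of 0.02, but these arrays were left out because of their values in these genes, so that a move upwards was fixed by the choice. In array lot 2 it was 21, with a median of -0.05. The share of all genes below 0 was taken over all 7 arrays without covariates only. Whether all genes moved likewise in the other settings was not tested, so these counts are descriptions.

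With striatal signal as a covariate, 13 of the 26 were below 0 and the median was -0.00026, yet single genes had larger differences than without it. Cacna1b was then at -0.34, Cacna1c at -0.39, Cacna1e at -0.37, Cacnb4 at -0.21, Scn3a at -0.49, Scn8a at -0.37 and Scn1a at -0.43. These 7 of the 26 had an unadjusted limma p under 0.05 in that fit. So did 1799 of the 16144 genes tested, against 1096 in the fit without the covariate. None of the 7 passed the adjusted threshold in limma, with the smallest adjusted p, 0.277, for Scn1a. The mean of the 9 striatal markers was higher on each CKO array than on each WT array. The covariate, however, averaged only a part of them: Penk, Drd2, Ebf1, Six3 and Isl1. Of these, Ebf1 alone did not overlap between the groups. For the others CKO 4 lay among or below the WT arrays. All had differences above 0, from 0.21 (Drd2) to 0.83 (Isl1), so the covariate still overlaps in part with the genotype.

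Marker lists of other kinds also varied by array. Relative to the mean of the 7 arrays, the 4 sodium pore genes averaged -0.21 on CKO 4, -0.07 on CKO 43 and 0.19 on WT 38, and the 5 high voltage activated calcium pore genes -0.16, -0.03 and 0.27. The 10 maturation genes averaged -0.20 on CKO 4, -0.19 on CKO 43 and 0.17 on WT 38, so that CKO 43 lay beside CKO 4 for this list. For both lists of pore genes CKO 43 was also below the mean of the 7 arrays, but by less than CKO 4. On WT 6 and WT 27 the lists differed. The maturation genes averaged 0.06 and 0.11 there, and the sodium pore genes 0.04 and -0.03. The calcium pore genes averaged -0.08 and -0.09, below CKO 43. The median difference of the maturation list was -0.04. Of its 10 genes, 7 overlapped between the groups, and 3, or Nefl, Nefm and Syt1, were lower on all CKO arrays, beside 2.99% of all genes. Nefl and Nefm, which encode neurofilament subunits, had the widest ranges: Nefl was at 8.49 on CKO 4 and 8.66 on CKO 43 and between 9.50 and 10.21 on the other arrays. The 10 interneuron markers were lowest on CKO 4, at -0.22, and between -0.05 and 0.13 on the other 6 arrays. The 9 genes of dividing cells went the other way, with 0.10 on CKO 4, their highest array, and -0.16 on WT 38, their lowest. Their mean also differed by group, between 0.03 and 0.10 on the CKO arrays and between -0.16 and -0.005 on the WT arrays. Red blood cell genes, of which 3 were tested, were at 0.45 on CKO 4 and -0.75 on WT 38. The 9 glutamatergic markers tested were at 0.05 on CKO 4 and 0.01 on WT 38. The part of these cell types and of maturation in the channel values was not tested.

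**Figure D4:**
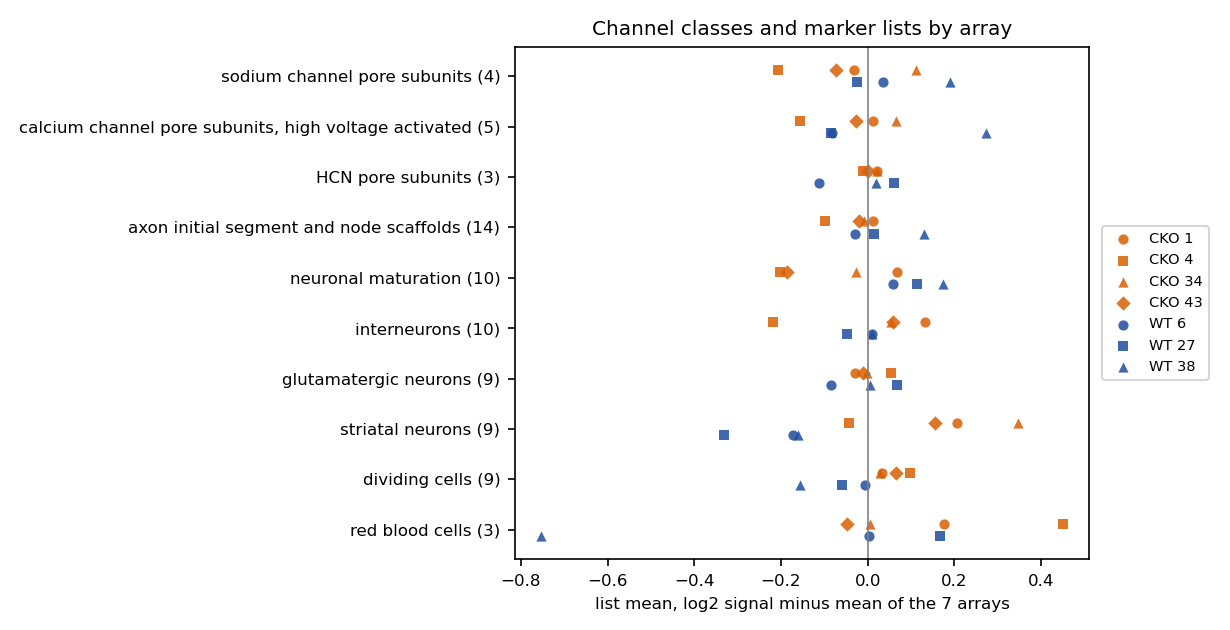
Mean log2 signal of channel classes, scaffold genes and marker lists (vertical axis, number of genes tested in brackets) on each array, relative to the mean of the 7 arrays (horizontal axis). Orange symbols are CKO and blue symbols WT arrays; CKO 4 (orange square) and WT 38 (blue triangle) are the outermost arrays for the sodium and high voltage activated calcium pore genes and for neuronal maturation, where CKO 43, at -0.19, lies beside CKO 4, at -0.20.

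T-type calcium pore genes had small differences with wide WT spreads. Cacna1g (probe set 10389929), the T-type pore of thalamic and deep cortical neurons, had signals of 10.04, 9.86, 9.70 and 9.89 on CKO 1, CKO 4, CKO 34 and CKO 43 and of 9.74, 10.12 and 9.99 on WT 6, WT 27 and WT 38. Both groups spread over about the same range, and the difference was -0.08 (SE 0.101, adjusted p 0.859). In array lot 2 alone it was -0.26. Cacna1h (probe set 10448925), the T-type pore also prominent in sensory neurons, was at 10.87, 10.85, 10.88 and 10.87 on the CKO arrays and at 10.61, 10.95 and 10.93 on WT 6, WT 27 and WT 38. The CKO arrays lay between WT 6 and the other 2 WT arrays, with an SD of 0.011 in CKO and 0.191 in WT. The difference was 0.04 (SE 0.0787), and -0.07 without WT 6. Cacna1i, the slowest of the T-type pores to inactivate, differed by -0.04 (SE 0.0604, adjusted p 0.896).

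The alpha2delta subunits, extracellular proteins that bring calcium channels to the membrane and take part in synapse formation, were all 3 slightly below 0. Of all genes tested, 41.1% were below 0. Cacna2d1 (probe set 10519855), a target of gabapentin, had 11.14, 11.25, 11.34 and 11.25 on CKO 1, CKO 4, CKO 34 and CKO 43, and 11.28, 11.26 and 11.36 on WT 6, WT 27 and WT 38. The groups overlapped, with CKO 1 lowest. The difference was -0.06 (SE 0.0534, adjusted p 0.822), and the second probe set gave -0.09. Cacna2d3 (probe set 10418300) had 9.40, 9.35, 9.35 and 9.37 in CKO and 9.54, 9.39 and 9.39 in WT, in the same order of arrays. Only WT 6 stood above the CKO arrays, and the difference was -0.07 (SE 0.0476, adjusted p 0.753). Cacna2d4, known from the retina, differed by -0.03 (SE 0.064).

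The cytoplasmic beta subunits, which bind the pore and promote its export to the membrane, differed by less than 0.1. Cacnb4 (probe set 10482695) was at 10.43, 10.25, 10.43 and 10.43 on CKO 1, CKO 4, CKO 34 and CKO 43 and at 10.48, 10.44 and 10.49 on WT 6, WT 27 and WT 38. No CKO array reached a WT array, but 3 CKO arrays lay within 0.01 of WT 27 and only CKO 4 stood apart. The difference was -0.08 (SE 0.0543, adjusted p 0.752), and -0.04 without CKO 4. Cacnb1 (probe set 10390542), which is also the subunit of skeletal muscle, had 11.26, 11.20, 11.25 and 11.24 on the CKO arrays and 11.33, 11.32 and 11.22 on the WT arrays. WT 38 lay within the CKO range, and the difference was -0.05 (SE 0.0422). Cacnb2 differed by 0.04 (SE 0.0412).

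HCN pore genes showed the smallest differences as a class. Hcn2 (probe set 10364478), a widely expressed neuronal HCN pore, had signals of 8.59, 8.55, 8.54 and 8.56 on CKO 1, CKO 4, CKO 34 and CKO 43 and of 8.52, 8.59 and 8.48 on WT 6, WT 27 and WT 38. The CKO arrays fell inside the WT range, and the difference was 0.03 with a 95% interval of -0.06 to 0.13. Hcn4 (probe set 10585851), the pacemaker channel of the sinoatrial node, had 10.27, 10.16, 10.30 and 10.21 on the CKO arrays and 10.06, 10.31 and 10.30 on the WT arrays. WT 6 was the lowest array, and the difference was 0.01 with a 95% interval of -0.15 to 0.16. Hcn3 differed by 0.02 with an interval of -0.11 to 0.14, again with WT 6 lowest, at 9.63. The adjusted p of the 3 genes ran from 0.852 to 0.985 in limma. With all arrays kept, a change beyond 0.164 on the log2 scale lay outside all 3 unadjusted intervals. Without WT 6 the differences of Hcn3 and Hcn4 were -0.05 and -0.07.

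Nalcn and Scnm1 were the remaining genes. Nalcn (probe set 10422537), the sodium leak channel that holds the resting potential, was at 8.81 on CKO 1 and at 8.59, 8.53 and 8.48 on CKO 4, CKO 34 and CKO 43, against 8.49, 8.58 and 8.52 on WT 6, WT 27 and WT 38. CKO 1 stood alone above the others. The difference was 0.07 (SE 0.0762, adjusted p 0.827), 0.0029 without CKO 1, and -0.05 in array lot 2, to which CKO 1 does not belong. Scnm1 (probe set 10500091) was at 11.77, 11.76, 11.70 and 11.63 on CKO 1, CKO 4, CKO 34 and CKO 43 and at 11.53, 11.58 and 11.69 on WT 6, WT 27 and WT 38. WT 38 lay above CKO 43, so the groups overlapped, and the difference was 0.12 (SE 0.0542, adjusted p 0.726).

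Partner genes of these channels did not pass either. Over 7 lists with 59 genes tested, 0 passed an adjusted p of 0.05 with limma, and 5 had an unadjusted p under 0.05, or 2 higher and 3 lower in CKO, a share of 8.47% beside 6.79% of all genes. Of the 59, 32 were below 0, or 54.2% beside 41.1%, and 5 did not overlap between the groups, or 8.47% beside 8.38%. The median over the 59 genes was -0.02. Of 14 scaffold genes of the axon initial segment and the node of Ranvier, 10 were below 0, or 71.4%, with a median of -0.08. Cntn2, an adhesion molecule of growing axons and of the node region, differed by -0.18 (SE 0.0563) and Sptbn4, the spectrin of the initial segment, by -0.13 (SE 0.0549), both without overlap between the groups and with adjusted p of 0.711 and 0.726. The scaffold list was lowest on CKO 4, at -0.10, and highest on WT 38, at 0.13, as were the sodium pore genes that such scaffolds hold in place.

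Of 16 calcium channel partners, 10 were below 0, or 62.5% beside 41.1% of all genes, with a median of -0.06. Bin1, a membrane-curving protein, differed by -0.12 (SE 0.0398, adjusted p 0.711) without overlap, and Akap5, which anchors kinases and phosphatases beside L-type channels, by -0.11 (SE 0.0535). Of 8 cytoplasmic partners of sodium channels tested, Fgf14, a fibroblast growth factor homologue that binds the channel inside the cell, differed by -0.14 (SE 0.0885). The ubiquitin ligase gene Nedd4l differed by -0.04 (SE 0.0366), lower in CKO without overlap. Of 5 HCN partners tested, Rab8b, a small GTPase of membrane traffic, differed by 0.08 (SE 0.037), higher in CKO without overlap. Kcne2 differed by 0.04 (SE 0.0406), with overlap. The NALCN complex gave -0.06 for Fam155a and -0.04 for Unc79. The TARP gamma genes, whose products chiefly serve glutamate receptors, gave 0.06 for Cacng1 and 0.09 for Cacng7. Of further genes of the channel families, 6 were tested and 0 were below 0, beside 41.1% of all genes. Their median was 0.05. Scn10a (0.22, SE 0.0936) and Scn11a (0.20, SE 0.0884), channels of sensory neurons, had means of 6.89 and 6.94, close to the filter.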

How the data were processed

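Total RNA of 7 samples was hybridised to 1 Affymetrix array each. The values are the authors' log2 signals, for which the submitters' processing notes name RMA and Affymetrix Expression Console. Their versions and the genome build: not given in the sources used here. Every array had a median log2 signal of 8.23. Of 35468 probe sets, 21786 had 1 symbol in the platform annotation. The brightest by mean stood for each gene, and genes below the 25th percentile of probe set means were left out. CKO was compared with WT over all genes with limma 3.58.1 (lmFit and eBayes, no covariate, two-sided) in R 4.3.3, with Benjamini-Hochberg adjustment at 0.05 over 16144 genes; the fit was tested on simulated data. Figures were drawn with matplotlib 3.10.9.

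The identifiers in the sample titles fall into 3 series of numbers, here called array lots, with no statement of whether a lot was processed together. Lot 1 held CKO 1 and CKO 4, lot 2 held CKO 34, CKO 43, WT 27 and WT 38, and lot 3 held WT 6. The 27 genes and all lists were chosen with earlier results of these data known. Genes given array by array are, by rule, those of each class with the smallest p, the highest signal or no overlap between groups; partners named are the 2 with the smallest p in each list. Other genes named with their array extremes were chosen after their values were seen. Alternatives were another normalization, other filters, averaged probe sets, another variance model, array weights, array lot, Y-linked and striatal covariates, another threshold and leaving out arrays.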

Additional observations from a re-analysis of the deposited data

Results flagged for a closer look

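Among the 4 CKO arrays, CKO 4 stood far from the other 3 for 2 of the 26 genes examined. Cacna1e was at 10.69 on CKO 4 and between 10.89 and 10.91 on the other CKO arrays, a gap of 0.918 of the group's whole range. Cacnb4 was at 10.25 on CKO 4 and at 10.43 on the nearest other array, a gap of 0.966 of the range. Each gap exceeded Dixon's critical value at the 95% level for 4 samples, which chance exceeds in about 1 in 20 groups. The test was run on these 26 genes only, so no share over all genes stands beside the 2. The 3 WT arrays were too few for this test.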

How the results depend on the processing

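No paired analysis was possible because the groups share no replicate numbers. None of the 26 genes or of the partners passed the adjusted threshold with limma in any of the settings run, in which 1 to 7 of the 26 had an unadjusted p under 0.05; the 7 came with striatal signal as a covariate and were Cacna1b, Cacna1c, Cacna1e, Cacnb4, Scn1a, Scn3a and Scn8a. The number of all genes called was 4, and 1 with cyclic loess normalization, with array weights or with Y-linked signal as a covariate. It was 0 with lot as a fixed block, in lot 2 alone, with the striatal covariate and without both WT 38 and CKO 4, where limma's unadjusted p was under 0.05 for 611, 486, 1799 and 1307 genes, and 1 to 6 when 1 array was left out. The median difference of the 26 genes ran from -0.066 to 0.013 when 1 array was left out, and was 0.018 without both WT 38 and CKO 4, a setting added after seeing the data; it was -0.00026 with the striatal covariate and -0.053 in lot 2 alone or with lot fitted as a block.

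Signs turned as follows. Without both arrays, Cacna1b was at 0.038, Cacna1c at 0.092, Cacna1d at 0.051, Cacna1e at 0.020, Cacna2d4 at 0.0079 and Scn3a at 0.016. With the striatal covariate, Cacna1g and Cacna1i were at 0.059, Cacna2d4 at 0.038, Hcn4 at -0.036, Scn2b at 0.089, Scn3b at 0.036 and Scn9a at -0.087. In lot 2 alone, and equally with lot as a fixed block, Cacna1h was at -0.067, Hcn3 and Hcn4 at -0.053, Nalcn at -0.045 and Scn4b at -0.041. With the Y-linked covariate, Scn3b was at 0.0057. When 1 array was left out, Cacna1c ran from -0.186 to 0.0193, Cacna1d from -0.154 to 0.0207, Cacna1g from -0.181 to 0.00653, Cacna1h from -0.0742 to 0.0949, Cacna1i from -0.0732 to 0.0347, Cacna2d4 from -0.064 to 0.0385, Hcn3 from -0.0493 to 0.0501, Hcn4 from -0.0737 to 0.0507, Scn2b from -0.162 to 0.0652 and Scn3b from -0.0496 to 0.0494. The cause was not tested. The sign was the same in every setting that gave a value for 10 of the 26 genes, Scn1a and Cacna1a among them. The number of arrays, 4 against 3, limits the precision of all differences.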
